A study of Homo sapiens with 38 samples.

Results

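The genes described here are 9 genes of MHC class I antigen presentation, HLA-B, HLA-C, HLA-E, HLA-F, B2M, TAP1, TAP2, TAPBP and NLRC5, chosen by name out of 20163 annotated protein-coding genes. Each was scored in every peak list of K562 CUT&Tag for 2 marks of lysine 27 on histone H3, acetylation (H3K27ac) and trimethylation (H3K27me3). The score is the cover of the start window, the percentage of the bases within 1.5 kb of any annotated transcript start that lies under a peak. A gene with at least 1 base of its start window under a peak is said to be called in that list.

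MHC class I molecules show peptides from inside the cell to CD8+ T cells and to natural killer cells. A polymorphic or non-classical heavy chain (HLA-B, HLA-C, HLA-E, HLA-F) pairs with beta-2-microglobulin (B2M), and the TAP1-TAP2 transporter and its adaptor tapasin (TAPBP) bring peptides to it in the endoplasmic reticulum. NLRC5 is the class I transactivator, which acts at the promoters of these genes, and interferons raise the whole set in many cell types. K562 is an erythroleukemia cell line known for its low display of class I molecules, and H3K27ac marks active promoters and enhancers whereas H3K27me3 is the mark laid down by the Polycomb complex PRC2.

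The series holds 38 libraries, 31 for H3K27ac and 7 for H3K27me3, all from K562 cells. Replicated libraries, amplified for 15 PCR cycles after SDS extraction, were made with Abcam-ab177178 (1:100), Abcam-ab4729 (1:100) and Diagenode (1:50) against H3K27ac and with Cell Signaling Technology-9733 (1:100) against H3K27me3, 2 libraries each, so that 6 H3K27ac and 2 H3K27me3 libraries could be compared. The other libraries are single ones: 5 H3K27ac antibody and dilution conditions (Active Motif at 1:100 and Diagenode at 1:100 among them) and 1 H3K27me3 library at 15 cycles, 4 H3K27ac libraries treated with the histone deacetylase inhibitor TSA, and 16 H3K27ac and 4 H3K27me3 libraries that crossed 13 or 11 PCR cycles with column or SDS extraction. Peaks had been called by MACS2 in 18 libraries and by SEACR in all 38, which gave 56 lists.

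The lists differ in how much they call, and the numbers of fragments that the study gives for its libraries are not used here. In the replicated H3K27ac libraries MACS2 gave 21317 to 34897 peaks over 20.2 to 39.9 Mb and SEACR 10930 to 15614 peaks over 49.4 to 77.6 Mb. In the replicated H3K27me3 libraries MACS2 gave 65638 and 77412 peaks over 193.4 to 216.7 Mb and SEACR 83643 and 85248 peaks over 200.1 to 229.2 Mb. The H3K27me3 lists of the crossed PCR and extraction libraries covered only 46.4 to 63.3 Mb. Of 12 erythroid and leukemia line markers, 10 were called for H3K27ac in all 6 replicated SEACR lists, against 0 of 6 T cell and 0 of 5 B cell markers.

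Across the replicated libraries the 9 genes fell on different sides of the H3K27ac and H3K27me3 comparison. B2M and TAPBP were called for H3K27ac in 6 of 6 libraries and for H3K27me3 in 0 of 2, by both callers. HLA-B, HLA-C, HLA-F and NLRC5 were called for H3K27ac in 0 of 6 and for H3K27me3 in 2 of 2, and TAP1 was called for H3K27me3 in 2 of 2 and for H3K27ac in some libraries. HLA-E and TAP2 were called for H3K27ac in some libraries, and neither was called for H3K27me3 in both.

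The 2 genes called for H3K27ac in every replicated library are to be read against 43.8% of all protein-coding genes by MACS2 and 36.7% by SEACR. The 4 genes called for it in no replicated library stand against 41.4% by MACS2 and 45.9% by SEACR. For H3K27me3, 5 of the 9 genes were called in both replicated libraries, where the share of all genes was 26.3% by MACS2 and 25.9% by SEACR, and 3 of 9 were called in neither, against 66.2% and 68.2% of all genes. None of the 9 was called for both marks in every replicated library, which held for 3.10% of all genes by MACS2 and 2.01% by SEACR.

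Start windows covered more by H3K27ac than by H3K27me3, with no overlap between the libraries, were found at 2 of the 9 genes (B2M and TAPBP), against 41.4% of all genes by MACS2 and 35.8% by SEACR. Windows covered less by H3K27ac than by H3K27me3 in the same sense were found at 5 of the 9 (HLA-B, HLA-C, HLA-F, TAP1 and NLRC5), against 23.5% by MACS2 and 22.9% by SEACR. In either direction the count was 7 of 9, against 65.0% and 58.7% of all genes. Each of the 7 had an exact two-sided permutation p of 0.0357, the smallest that 6 against 2 libraries allow, and a Benjamini-Hochberg adjusted p of 0.0582 by MACS2 and 0.0637 by SEACR over all genes, so that none passed 0.05 after adjustment. The lists of the marks were also called at different thresholds, so mark, antibody and threshold cannot be told apart. The test pools the 6 H3K27ac libraries across antibodies, so these p-values reflect the spread between antibodies as well as between the 2 libraries of each. All are libraries of a single cell line, and the study calls the 2 libraries of a condition biological replicates.

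**Figure D1:**
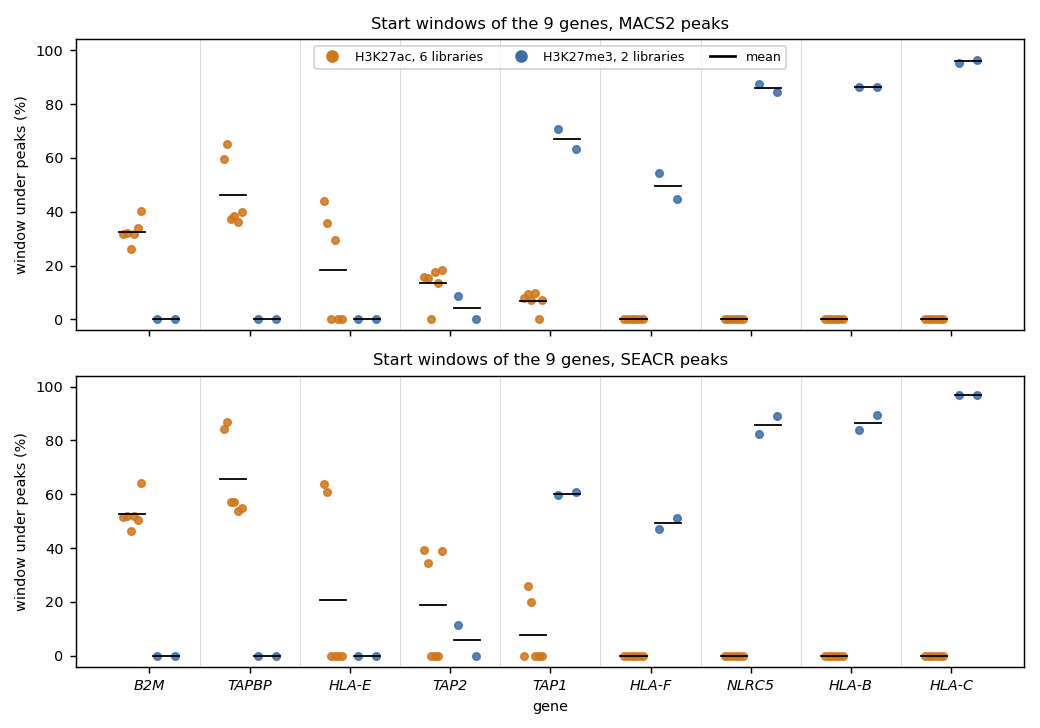
Start-window cover (percent of the window under peaks) of the 9 genes in the replicated libraries, by MACS2 and by SEACR. Points are single libraries and lines their means, with H3K27ac (6 libraries) to the left of H3K27me3 (2 libraries). B2M and TAPBP have H3K27ac points only above 0, HLA-B, HLA-C, HLA-F and NLRC5 have H3K27me3 points only above 0, and TAP1 has both.

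B2M, the invariant light chain of every class I molecule, lies on the plus strand at chr15:45003556-45011049 (hg19), with 11 annotated starts. Its start window was covered by 31.7% and 31.9% in the ab177178 libraries, 26% and 31.8% in the ab4729 libraries and 33.9% and 40.2% in the Diagenode libraries by MACS2, against 0% in both H3K27me3 libraries. By SEACR the values were 51.5% and 51.8% for ab177178, 46.3% and 52.1% for ab4729 and 50.4% and 64.2% for Diagenode, against 0% and 0% for H3K27me3. The 6 H3K27ac libraries thus lay close together and wholly above the H3K27me3 ones (mean 32.6% ± 4.6 by MACS2 and 52.7% ± 6.01 by SEACR, SD, n = 6).

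The B2M acetylation was a single SEACR peak of 3206 to 5498 bp in each of the 6 libraries, which began between -2174 and -1546 bp and ended between 1649 and 3323 bp from the main start (the MANE Select start of GENCODE). It therefore spanned the promoter and the first exon. The highest MACS2 fold enrichment in the window was 15.3 to 41.4, higher than that of 80.1% to 87.4% of protein-coding genes in the same library. In this share and those like it below, all protein-coding genes are counted, and a gene without a peak counts as lower. The window overlaps by 2966 bp that of PATL2, a gene on the opposite strand whose main start lies 194 bp away, and PATL2 was called for H3K27ac in the same 6 of 6 libraries by both callers. A peak here cannot be given to B2M or PATL2 alone.

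TAPBP, which encodes tapasin, lies on the minus strand at chr6:33267471-33282061 (hg19). By MACS2 its start window was covered by 59.6% and 65.1% in the ab177178 libraries, 37.2% and 38.4% in the ab4729 libraries and 36.1% and 39.8% in the Diagenode libraries, against 0% in both H3K27me3 libraries. SEACR gave 84.2% and 86.9% for ab177178, 57.3% and 57.3% for ab4729 and 53.9% and 55% for Diagenode, against 0% and 0% for H3K27me3. The ab177178 libraries were the highest by both callers, and the mean was 46% ± 12.8 by MACS2 and 65.8% ± 15.4 by SEACR (SD, n = 6). Only the ab177178 libraries had separate peaks further inside the gene, by both callers. By SEACR these lay over exons 4 to 7 of 8, at chr6:33271501-33274496 in replicate 1. They add to the cover because annotated starts run down to chr6:33272307. The SEACR peak over the main start touched exons 1 to 3 in all 6 libraries.

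The SEACR peak over the TAPBP start was up to 13023 bp wide, of which 2406 bp lay within the MANE Select transcript and the rest upstream of the main start, and 28.6% to 58.7% of the gene body was covered by SEACR peaks. Its highest MACS2 fold enrichment, 18.2 to 54.8, exceeded that of 86.2% to 93.8% of protein-coding genes in the same library and was the highest of the 9 genes in all 6 libraries. Of the 16 other protein-coding genes within 100 kb of TAPBP, 14 were called for H3K27ac in 6 of 6 libraries by each caller, and 0 for H3K27me3 in both. Of all genes, 43.8% by MACS2 and 36.7% by SEACR were called for H3K27ac in 6 of 6.

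The promoters of B2M and TAPBP are printed because these are the genes with acetylation in every replicated library and both carry the letters of the interferon-stimulated response element. The sequences are the 250 bases before the start in RefSeq, GRCh38.p14, read 5′ to 3′ along the gene, a build other than that of the peaks. Capitals mark the response element core (GAAA, any 2 bases, GAAA), CCAAT (core of the Y box, bound by NF-Y), TGACG (core of the X2 box, bound by CREB and ATF proteins) and GATAA (bound by GATA factors), searched on both strands.
B2M, chr15:44711267-44711516, plus strand: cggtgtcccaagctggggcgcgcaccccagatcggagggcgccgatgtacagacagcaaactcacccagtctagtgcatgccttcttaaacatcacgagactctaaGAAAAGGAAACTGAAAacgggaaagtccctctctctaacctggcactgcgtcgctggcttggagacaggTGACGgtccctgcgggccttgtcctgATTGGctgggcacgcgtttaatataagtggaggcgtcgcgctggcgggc
TAPBP, chr6:33314079-33314328, minus strand: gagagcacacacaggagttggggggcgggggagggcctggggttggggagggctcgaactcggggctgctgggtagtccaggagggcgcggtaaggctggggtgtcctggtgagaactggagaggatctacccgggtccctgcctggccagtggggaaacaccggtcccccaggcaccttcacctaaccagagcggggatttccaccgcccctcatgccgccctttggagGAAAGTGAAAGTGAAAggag

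B2M held 2 overlapping response element cores, from -144 to -129, with TGACG from -75 and CCAAT on the opposite strand from -49 (the base before the start is -1). TAPBP held 2 overlapping response element cores from -20 to -5 and none of the other motifs. The core was found in 3.57% of 35116 RefSeq promoters of 300 bases, and in 5 of the 7 genes of this set that have an entry (B2M, TAPBP, TAP1, TAP2 and HLA-F). A match is a run of letters and not a measured site.

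HLA-B and HLA-C, the classical heavy chains, are neighbours on the minus strand of chromosome 6, at chr6:31321649-31334844 and chr6:31236526-31239907 (hg19), 81.7 kb apart. HLA-B had 0% cover in all 6 H3K27ac libraries by both callers, against 86.4% and 86.3% by MACS2 and 83.8% and 89.4% by SEACR in the 2 H3K27me3 libraries. HLA-C likewise had 0% in all 6 H3K27ac libraries, against 95.3% and 96.5% by MACS2 and 96.9% and 96.9% by SEACR for H3K27me3. The libraries of the 2 marks did not overlap at either gene.

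A single H3K27me3 peak of 6897 to 7278 bp ran across HLA-C, from between -1371 and -1282 bp to between 5529 and 5995 bp from the main start. It covered 100% of the gene body, all 8 exons included, in both libraries by both callers. At HLA-B 71.1% to 83.9% of the gene body was covered, by peaks up to 13613 bp wide with MACS2 and 9924 bp with SEACR. The annotated body of HLA-B is longer, at 13196 bp against 3382 bp for HLA-C. By SEACR 1 peak lay over all 8 exons of its MANE Select transcript in both libraries. The fold enrichment of the highest MACS2 H3K27me3 peak was 11.3 and 14.1 at HLA-B and 5.63 and 6.9 at HLA-C, higher than in 99.3% of genes at HLA-B in both libraries and in 91.4% and 92.1% at HLA-C. These shares count as lower the 66.2% of all genes that MACS2 called for H3K27me3 in neither library. HLA-B had the highest H3K27me3 fold enrichment of the 9 genes in both libraries.

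HLA-F, a non-classical heavy chain, lies on the plus strand at chr6:29690552-29706305 (hg19). Its cover was 0% in all 6 H3K27ac libraries by both callers, against 54.3% and 44.7% by MACS2 and 47.2% and 51.2% by SEACR in the H3K27me3 libraries. The H3K27me3 lay in a single peak of 2575 to 3130 bp, with its start between -529 and -281 bp and its end between 2254 and 2848 bp from the main start. Of the gene body 17.3% to 26.3% was covered, a smaller share than at HLA-C, but of a body of 15754 bp against 3382 bp. By SEACR the peak lay over exons 1 to 5 of 7 of the MANE Select transcript in both libraries. The fold enrichment of 4.1 and 3.51 was lower than at HLA-B, HLA-C and NLRC5.

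The promoters of HLA-B, HLA-C and HLA-F are printed as the heavy chain genes whose start windows had H3K27me3 and no replicated H3K27ac, with the same source, build and capitals.
HLA-B, chr6:31357180-31357429, minus strand: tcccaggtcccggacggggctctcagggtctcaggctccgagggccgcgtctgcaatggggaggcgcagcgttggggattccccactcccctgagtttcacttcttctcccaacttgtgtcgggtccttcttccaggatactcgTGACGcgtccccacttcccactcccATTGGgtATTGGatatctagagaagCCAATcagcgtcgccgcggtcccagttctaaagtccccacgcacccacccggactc
HLA-C, chr6:31272093-31272342, minus strand: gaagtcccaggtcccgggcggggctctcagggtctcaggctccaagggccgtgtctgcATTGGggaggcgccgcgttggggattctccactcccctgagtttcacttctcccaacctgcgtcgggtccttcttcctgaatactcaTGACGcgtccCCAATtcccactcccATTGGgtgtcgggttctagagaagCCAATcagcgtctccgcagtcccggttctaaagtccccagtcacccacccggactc
HLA-F, chr6:29723184-29723433, plus strand: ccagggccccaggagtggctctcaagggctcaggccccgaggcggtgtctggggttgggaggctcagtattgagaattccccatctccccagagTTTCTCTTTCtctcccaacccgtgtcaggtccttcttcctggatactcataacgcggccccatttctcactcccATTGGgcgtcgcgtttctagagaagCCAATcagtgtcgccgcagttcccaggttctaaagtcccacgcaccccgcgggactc

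HLA-B and HLA-C were identical at 269 of 304 aligned columns of the 300-base promoter (88.5%), and HLA-F shared 79.7% with HLA-B and 78.9% with HLA-C. CCAAT stood at -56 in HLA-B and HLA-C and at -57 in HLA-F, and TGACG at -106 in HLA-B and -105 in HLA-C. CCAAT occurred in 5 of the 7 genes and in 34.6% of all promoters, and TGACG in 4 of 7 and 24.6%. The response element core was found in HLA-F, from -156 to -147, and not within this window of HLA-B or HLA-C. Copies elsewhere in the genome matter for read placement, and only exact ones were counted. Of all 75-base words of the start windows, 0.174% in HLA-B, 0.779% in HLA-C and 2.02% in HLA-F occurred more than once in the genome, and between 0% (B2M) and 0.696% (TAPBP) in the other 6 genes. Words that differ by a single base were not counted, so the part of near-identical copies in read placement was not tested.

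HLA-E, the non-classical heavy chain that presents leader peptides of other class I molecules, lies on the plus strand at chr6:30457286-30461971 (hg19). By MACS2 it had 43.9% and 35.8% cover in the ab177178 libraries, 0% and 29.5% in the ab4729 libraries and 0% in both Diagenode libraries, against 0% in both H3K27me3 libraries. By SEACR it had 64% and 60.9% in the ab177178 libraries and 0% in the other 4, against 0% and 0% for H3K27me3. The gene was therefore called mainly with 1 antibody, and its H3K27ac and H3K27me3 libraries overlapped at 0% (exact two-sided permutation p of 0.464 by MACS2 and 0.786 by SEACR, n = 6 and 2). The ab177178 lists were also the largest by MACS2, with 34897 and 34009 peaks, against 21317 to 29019 in the other replicated H3K27ac libraries. Antibody and list size cannot be told apart here.

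Where MACS2 called HLA-E, the peak began at -146 bp from the start in each of the 3 libraries and ended between 740 and 1172 bp, over exons 1 to 3 of 8. Its fold enrichment of 12.4 to 14.3 exceeded that of 54.2% to 58.1% of all genes. Most of these lower genes had no peak, since 41.4% of all genes were called by MACS2 in no replicated H3K27ac library. All 3 other protein-coding genes within 100 kb of HLA-E were called for H3K27ac in 6 of 6 libraries by both callers.

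**Figure D2:**
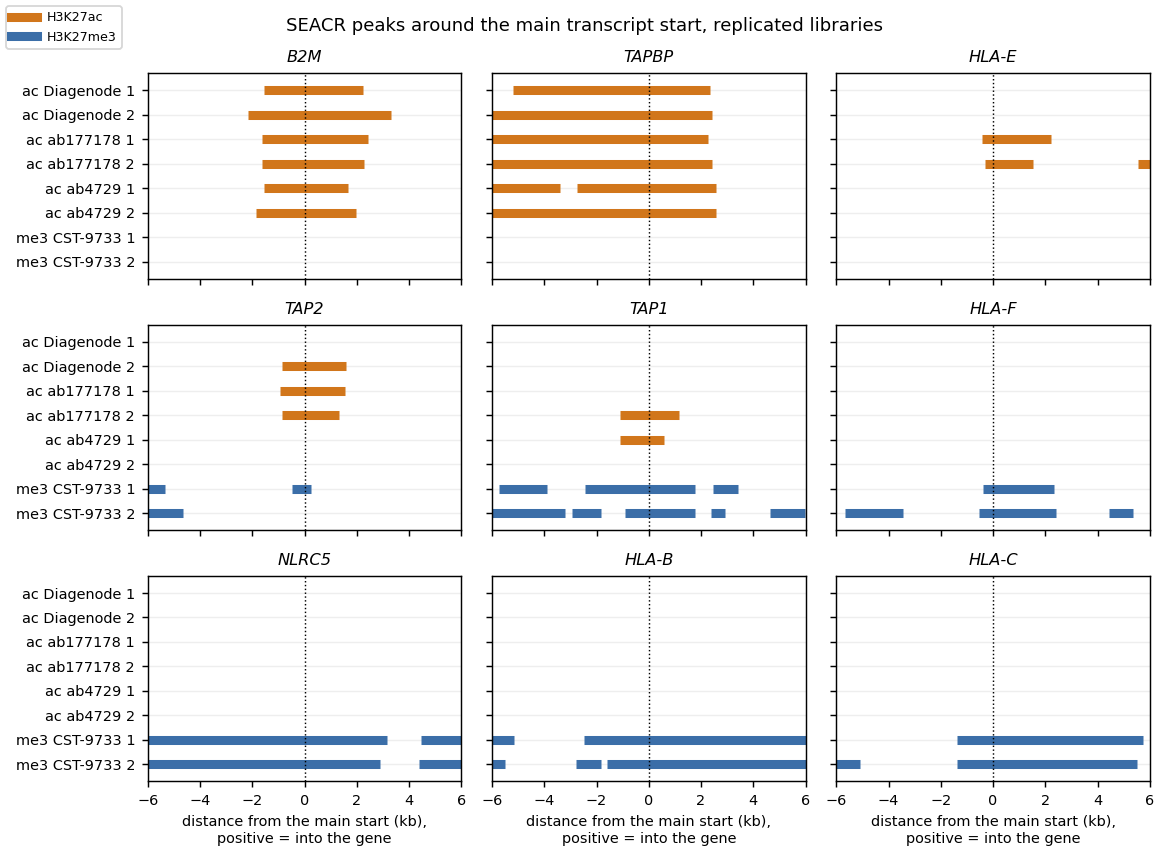
SEACR peaks of the replicated libraries around the main start of the 9 genes, by distance from that start in kb, positive into the gene. Each row is 1 library, with H3K27ac (orange) above H3K27me3 (blue). A single H3K27me3 peak crosses the start of HLA-C in both H3K27me3 rows, and at TAP1 the H3K27ac peaks lie within the H3K27me3 peak of replicate 1.

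TAP1 and TAP2, the subunits of the peptide transporter, lie 6.47 kb apart on the minus strand, at chr6:32812986-32821593 and chr6:32789610-32806516 (hg19). TAP1 had H3K27ac cover by MACS2 of 7.9% and 9.55% with ab177178, 7.33% and 9.72% with ab4729 and 0% and 7.05% with Diagenode, against H3K27me3 cover of 70.8% and 63.3%. By SEACR its H3K27ac cover was 0% and 26.1% with ab177178, 19.9% and 0% with ab4729 and 0% in both Diagenode libraries, against 59.7% and 60.7% for H3K27me3. Replicates of the same antibody disagreed on the call by SEACR, while H3K27me3 was the higher mark in every library compared.

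The marks fell on the same bases of TAP1. Of the start window, 872 bp lay under an H3K27ac MACS2 peak in any library and all 872 bp lay also under an H3K27me3 peak, and by SEACR this was 2263 of 2263 bp. The TAP1 window shares 2669 bp with that of PSMB9, an immunoproteasome subunit read in the opposite direction from a start 488 bp away. PSMB9 was called for H3K27ac in 5 of 6 libraries by MACS2 and 2 of 6 by SEACR and for H3K27me3 in 2 of 2 by both, the same counts as TAP1. Peak lists of a cell population do not show whether both marks lay on the same chromosomes.

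TAP2 had H3K27ac cover by MACS2 of 15.6% and 15.4% with ab177178, 0% and 17.6% with ab4729 and 13.4% and 18.5% with Diagenode, against 8.57% and 0% for H3K27me3. By SEACR it had 39.2% and 34.6% with ab177178, 0% in both ab4729 libraries and 0% and 38.9% with Diagenode, against 11.6% and 0% for H3K27me3. The libraries of the marks overlapped (exact two-sided permutation p of 0.143 by MACS2 and 0.5 by SEACR, n = 6 and 2). The H3K27me3 peaks called in replicate 1 shared 270 bp of the window with H3K27ac by MACS2 and 737 bp by SEACR. The TAP2 window overlaps by 2918 bp that of a protein-coding gene annotated without a symbol on the same strand. That gene was called in the same numbers of libraries as TAP2 for both marks by both callers, so a peak here cannot be given to TAP2 alone. With only the 50% of each SEACR list with the highest signal kept, HLA-E, TAP1 and TAP2 were called for H3K27ac in 0 of 6 libraries and TAP2 for H3K27me3 in 0 of 2. Around TAP2, 6 of the 9 other protein-coding genes within 100 kb were called for H3K27me3 in both libraries and 0 for H3K27ac in all 6, by each caller. Of all genes, 26.3% by MACS2 and 25.9% by SEACR were called for H3K27me3 in both.

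The promoters of TAP1 and TAP2 are printed because both carry the response element core while their H3K27me3 cover differs, with the same source, build and capitals. For TAP1 the entry with the more upstream start was used.
TAP1, chr6:32853705-32853954, minus strand: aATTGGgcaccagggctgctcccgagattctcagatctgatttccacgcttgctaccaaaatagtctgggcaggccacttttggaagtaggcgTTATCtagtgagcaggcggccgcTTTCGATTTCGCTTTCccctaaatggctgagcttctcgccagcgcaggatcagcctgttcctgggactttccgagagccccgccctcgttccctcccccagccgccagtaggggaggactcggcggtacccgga
TAP2, chr6:32838740-32838989, minus strand: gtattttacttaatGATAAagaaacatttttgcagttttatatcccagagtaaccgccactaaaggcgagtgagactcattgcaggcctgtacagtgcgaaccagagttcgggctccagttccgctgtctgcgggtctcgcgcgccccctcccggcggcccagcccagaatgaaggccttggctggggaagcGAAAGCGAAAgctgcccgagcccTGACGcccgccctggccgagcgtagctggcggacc

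TAP1 held 2 overlapping cores on the opposite strand, from -134 to -119, and TAP2 held 1 from -58 to -49. Both held GATAA, at -157 in TAP1 on the opposite strand and at -236 in TAP2, a motif found in 22.7% of all promoters and in 2 of the 7 genes.

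NLRC5, the transactivator of this gene set, lies on the plus strand at chr16:57023397-57117443 (hg19), and its 28 annotated starts give a start window of 39622 bp. It had 0% cover in all 6 H3K27ac libraries by both callers, against 87.4% and 84.5% by MACS2 and 82.3% and 89.1% by SEACR in the H3K27me3 libraries. H3K27me3 peaks up to 26876 bp wide covered 70.1% to 79.9% of its 94047 bp gene body, and the highest MACS2 fold enrichment of 7.22 and 8.66 was above that of 95.5% and 95.8% of genes. By the highest fold enrichment, the 5 genes with replicated H3K27me3 stood in the order HLA-B, NLRC5 and HLA-C in both libraries, with HLA-F (4.1 and 3.51) and TAP1 (3.51 and 4.49) changing places below them. Of 5 other protein-coding genes within 100 kb of NLRC5, 3 by MACS2 and 2 by SEACR had H3K27ac in 6 of 6. For H3K27me3 in both libraries it was 2 by each caller. By each caller these H3K27ac and H3K27me3 counts were 1 and 1 of 2 at HLA-B and 0 and 1 of 2 at HLA-C. They were 1 and 3 of 4 at HLA-F and 1 and 6 of 10 at TAP1. At B2M they were 3 (MACS2) or 2 (SEACR) and 0 of 3.

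Counted over all lists, the replicated ones among them, TAPBP and B2M had the most H3K27ac calls. Outside the replicated lists, SEACR called TAPBP in 14 and B2M in 10 of the 16 crossed PCR and extraction lists. It called them in 5 and 4 of the 5 untreated single lists at 15 cycles and in 3 each of the 4 TSA lists. For H3K27ac, TAPBP was called in 28 and B2M in 23 of all 31 SEACR lists, TAP2 in 4, HLA-E in 3, NLRC5 in 3, TAP1 in 2 and HLA-B and HLA-C in 1 each. HLA-F alone of the 9 was called in none, which was true of 38.9% of all genes, and 0 of the 9 was called in all 31, against 1.32% of all genes. Of the 15 H3K27ac MACS2 lists, TAPBP was called in 14 and B2M in 13, 4 of the 9 genes (HLA-B, HLA-C, HLA-F and NLRC5) in none, against 39.9% of all genes, and 0 in all 15, against 1.05%.

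For H3K27me3, HLA-B, HLA-C and NLRC5 were called in all 7 SEACR lists, against 12.2% of all genes, and HLA-E, B2M and TAPBP in none, against 58.8%. By MACS2, 5 of the 9 were called in all 3 lists, against 23.5%, and the same 3 genes in none, against 63.3%. The 4 lists of the crossed PCR and extraction libraries gave 40.9% to 70.3% at HLA-B, 24.6% to 48.4% at HLA-C and 18.5% to 28.2% at NLRC5. HLA-F had 0%, 0%, 8.49% and 13.8% in these lists, and TAP1 12.4%, 0%, 0% and 13.8%. These values lay below those of the replicated libraries, in lists that also covered less of the genome, and the part of depth in this was not tested.

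The few H3K27ac peaks at HLA-B, HLA-C and NLRC5 stood in few lists. Those at HLA-B and HLA-C were both in the Diagenode (1:50) library of 11 cycles and SDS extraction, at 11.2% and 11.4% cover. At HLA-B the peak lay at chr6:31321917-31322927 over exons 5 to 8, and at HLA-C at chr6:31238996-31239618 over exons 2 and 3 (hg19), neither of them on the main start. At NLRC5 2 peaks in the single ab177178 library of 15 cycles gave 6.21% cover, 3 peaks in the ab4729 TSA library gave 6.94% and 1 peak gave 2.22%, and only the last, in the ab177178 library of 11 cycles and column extraction, lay over exon 1.

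**Figure D3:**
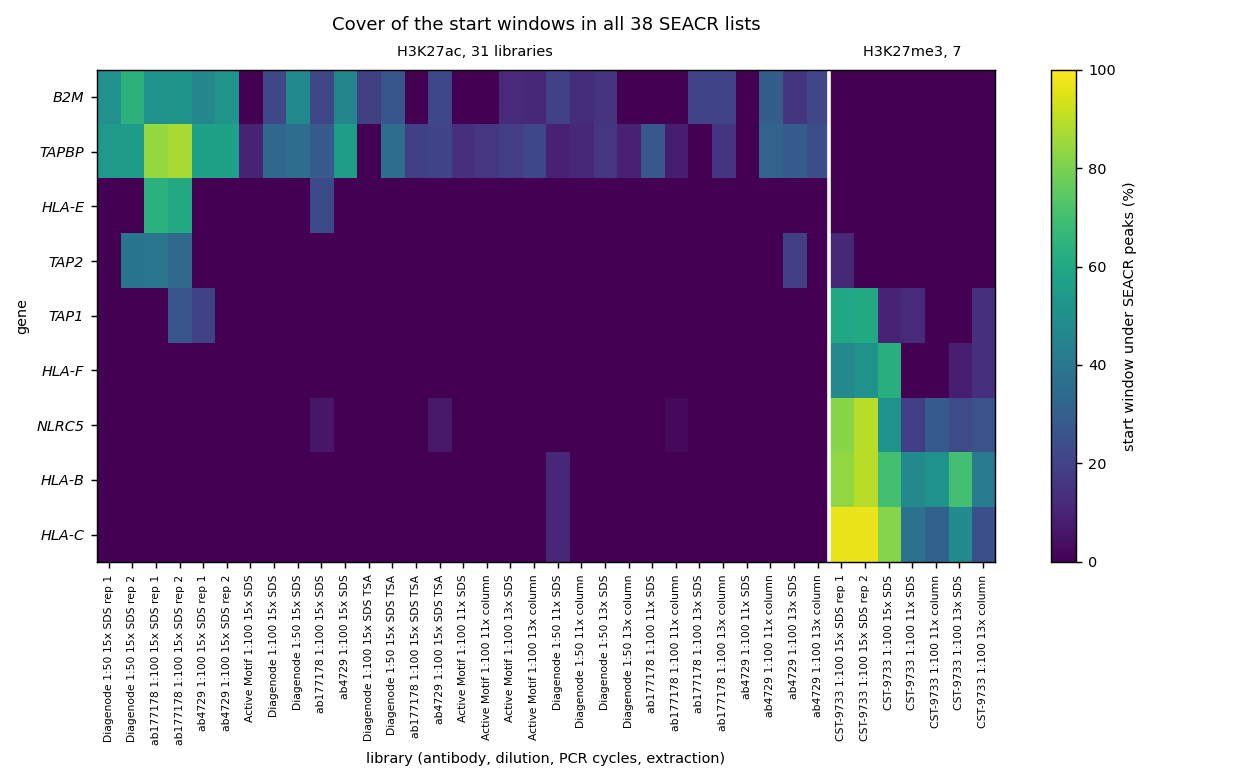
Start-window cover (colour, percent) of the 9 genes in all 38 SEACR lists, with the 31 H3K27ac lists left of the 7 H3K27me3 lists. B2M and TAPBP are above 0% in most H3K27ac columns (23 and 28 of 31), and HLA-B, HLA-C and NLRC5 in all 7 H3K27me3 columns.

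TSA blocks the enzymes that remove histone acetylation, and 4 libraries treated with it could each be set against the untreated library of the same antibody and dilution. B2M had 0%, 21.6%, 18.8% and 26.9% SEACR cover with TSA, against 21.8%, 45.9%, 21.6% and 47.9% without it, in the order ab177178, ab4729, Diagenode (1:100) and Diagenode (1:50). It was lower with TSA in 4 of 4 pairs, as were 13.2% of all genes (mean difference -17.5 points ± 9.87, SD, n = 4, exact two-sided sign-flip test, 2 of 16 sign patterns as extreme, the fewest that 4 pairs allow, adjusted p 0.923). By MACS2 it was lower in 3 of 4 pairs.

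TAPBP had 18.9%, 20.9%, 0% and 35.7% SEACR cover with TSA, against 28.9%, 56%, 33.3% and 35.6% without it, lower in 3 of 4 pairs (mean difference -19.6 points ± 17.4, SD, n = 4, exact p of 0.25). By MACS2 it had 2.8%, 4.59%, 5.42% and 10.6% with TSA, against 9%, 33.4%, 14.1% and 29.8% without it. It was thus lower in 4 of 4 pairs by MACS2, as were 6.79% of all genes (mean difference -15.7 points ± 10.4, SD, n = 4, again 2 of 16 sign patterns in the exact test). Of the 9 genes 0 was higher with TSA in every pair, against 0.00496% of all genes by SEACR and 0% by MACS2. The smallest p that 4 pairs allow, 2 of 16 sign patterns, lies above 0.05. No gene could therefore have a p under 0.05, adjusted or not, and the 0% of all genes that did says nothing of TSA.

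HLA-B, HLA-C, HLA-E, HLA-F, TAP1 and TAP2 had 0% H3K27ac cover in all 4 TSA libraries by both callers. HLA-B, HLA-C, HLA-F and TAP2 had 0% in the 4 untreated partners too. Without TSA, HLA-E had 22.4% by SEACR and 10% by MACS2 with ab177178 only, and TAP1 had 5.22% by MACS2 with ab4729 only. The TSA lists came from reads sampled down by the authors and held 1876 to 9940 MACS2 peaks, against 2348 to 25849 in the untreated single libraries, 1 of which (Active Motif) had no TSA partner, so that treatment and depth cannot be told apart.

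**Figure D4:**
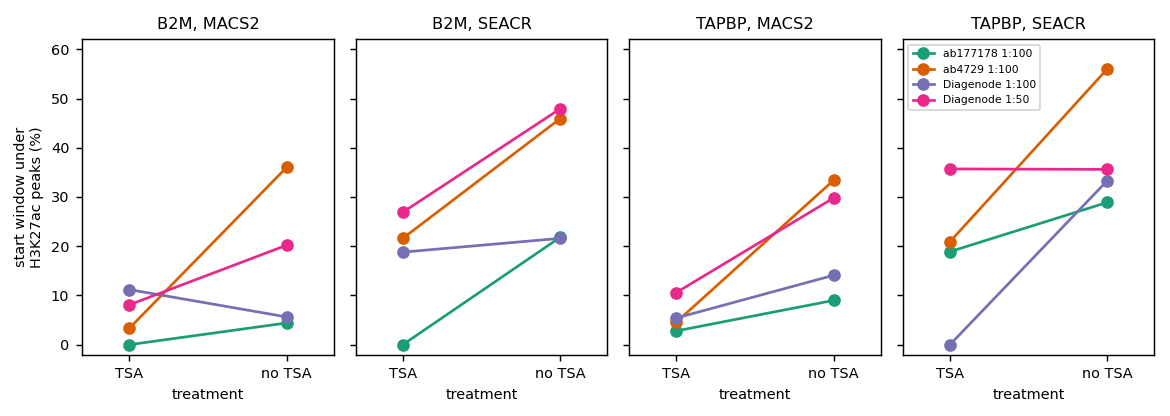
Start-window cover (percent) of B2M and TAPBP in the 4 pairs of H3K27ac libraries, with TSA to the left of without TSA, by MACS2 and SEACR. Lines join libraries of the same antibody and dilution. B2M by SEACR and TAPBP by MACS2 are lower with TSA in 4 of 4 pairs, B2M by MACS2 and TAPBP by SEACR in 3 of 4.

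PCR cycle number and DNA extraction were compared in 8 pairs each, among 16 H3K27ac SEACR lists. B2M was called in 7 of 8 libraries at 13 cycles and 3 of 8 at 11 cycles, with a mean cover of 14.6% at 13 cycles and 7.82% at 11 cycles, higher at 13 cycles in 5 pairs and lower in 3 (mean difference 6.73 points ± 13.2, SD, n = 8, exact sign-flip p of 0.203, adjusted p 1). TAPBP was called in 7 of 8 at each cycle number, at a mean of 16.7% at 13 cycles and 14.6% at 11 cycles (exact p of 0.656, n = 8). Neither difference was larger than the spread between pairs.

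After column extraction B2M was called in 5 of 8 libraries and after SDS extraction in 5 of 8, with means of 12% and 10.3% (exact p of 0.781, n = 8). TAPBP was called in 8 of 8 after column and 6 of 8 after SDS extraction, with means of 17.1% and 14.2% (exact p of 0.648, n = 8). No gene of the whole table passed an adjusted p of 0.05 in either comparison (0% each), and unadjusted p-values under 0.05 were found for 0 of the 9 genes, against 0.838% of all genes for cycle number and 0.486% for extraction. None of the 9 was lower at 13 cycles in every pair, against 0.0397% of all genes, or higher after column extraction in every pair, against 0.0248%.

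In the 6 replicated H3K27ac libraries cover by MACS2 was lower than cover by SEACR at B2M (mean difference -20.1 points ± 2.39, SD, n = 6) and at TAPBP (-19.7 points ± 3.26), in 6 of 6 libraries each, as in 32.2% of all genes. The exact two-sided sign-flip test had 2 of 64 sign patterns as extreme, the fewest that 6 libraries allow, for these 2 of the 9 genes. Its p was under 0.05 for 32.4% of all genes, and the p of B2M and TAPBP adjusted over all genes was 0.0963, with 0% of all genes under 0.05. None of the 9 was covered more by MACS2 in 6 of 6 libraries, against 0.208% of all genes. By contrast MACS2 called TAP1 in 5 libraries where SEACR called it in 2, TAP2 in 5 where SEACR called it in 3 and HLA-E in 3 where SEACR called it in 2.

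The other genes of the pathway, listed by role, are counted here as called in every replicated library of a mark by SEACR. Among 8 relatives of the class I heavy chain, 3 were called for H3K27ac (MICA and MICB, ligands of the receptor NKG2D, and MR1, which presents vitamin B metabolites to MAIT cells) and 3 for H3K27me3. Of the H3K27me3 ones, HLA-G, a non-classical heavy chain, and CD1D, which presents lipids, were called by both callers, with mean SEACR cover of 84.6% and 52.5% for H3K27me3 and 0% for H3K27ac at each.

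All 6 genes of peptide loading and trimming were called for H3K27ac and 0 for H3K27me3 in both libraries. Among them were the chaperones CALR (67.2% ± 26 H3K27ac cover, SD, n = 6) and CANX (51.5% ± 2.98), and the trimming peptidases ERAP1 (20.4% ± 0.421) and ERAP2 (13.7% ± 3.4). Of 6 immunoproteasome and activator genes, 2 were called for H3K27ac (PSMB10 at 97.7% ± 3.98 and PSME2 at 53.3% ± 13.1) and 2 for H3K27me3 (PSMB8 at 44.4% and PSMB9 at 62.9%, n = 2). PSMB8 and PSMB9 lie beside TAP1 and TAP2, whereas PSMB10 and PSME2 are on other chromosomes.

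Of 12 factors that bind class I promoters, 9 were called for H3K27ac and 1 for H3K27me3 (NFYA, a subunit of NF-Y, which was called for both marks), with ATF1 at 100% ± 0 and CREB1 at 15.3% ± 3.58 H3K27ac cover (SD, n = 6). Of 10 genes of interferon receptor signalling, 6 were called for H3K27ac and 0 for H3K27me3, among them the receptor chain IFNGR1 at 79.6% ± 12.8 and the receptor chain IFNAR1 at 18.2% ± 2.48. Of 12 class II presentation genes, 1 was called for H3K27ac (HLA-DMA, also called for H3K27me3) and 8 for H3K27me3, among them CIITA, the class II transactivator and a relative of NLRC5, at 4.1% ± 6.36 for H3K27ac and 44.6% for H3K27me3, and HLA-DOA at 0% for H3K27ac and 98.1% for H3K27me3.

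Over the 9 genes themselves the median SEACR cover was 7.67% for H3K27ac and 49.2% for H3K27me3, against 6.58% and 0% over all protein-coding genes. The medians were 26.6% and 0% for peptide loading and trimming, and 0% and 21.4% for class II presentation. The counts by MACS2 were 4 of 8 and 2 of 8 for the heavy chain relatives, 6 of 6 and 0 of 6 for loading and trimming, 3 of 6 and 2 of 6 for the immunoproteasome, 11 of 12 and 2 of 12 for the promoter factors, 8 of 10 and 0 of 10 for interferon signalling and 1 of 12 and 8 of 12 for class II, H3K27ac before H3K27me3. No list was tested as a set.

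**Figure D5:**
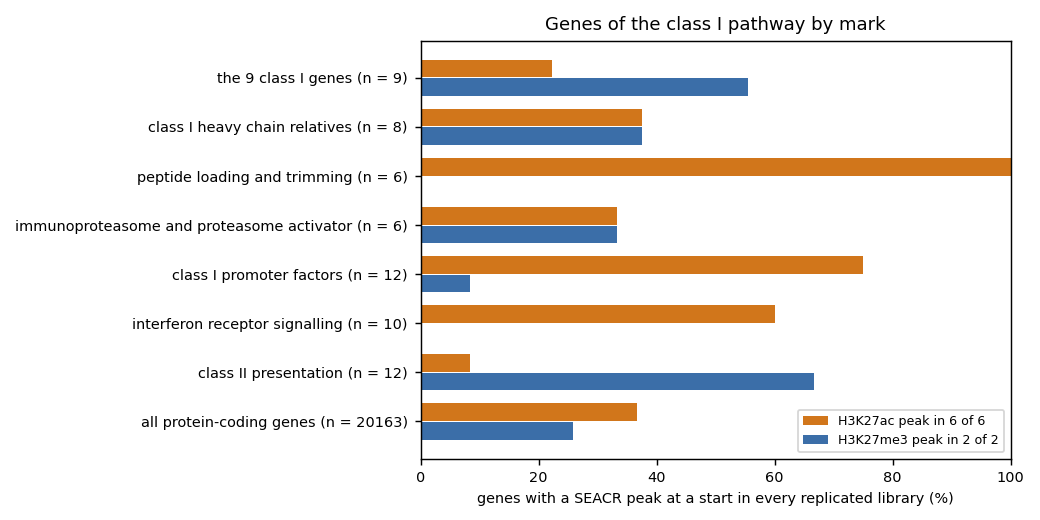
Share of the genes in each pathway list (percent) called in all 6 replicated H3K27ac libraries and in both replicated H3K27me3 libraries, by SEACR, with all protein-coding genes for comparison. Loading and trimming genes stand at 6 of 6 for H3K27ac, class II genes at 8 of 12 for H3K27me3, and the 9 class I genes at 2 and 5.

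The gene elsewhere in the genome whose SEACR cover over the 38 lists was most like that of each of 8 of the 9 was also found, as a description, since the 38 points share marks and antibodies. For HLA-B it was ASB10 (Pearson r of 1.00), for HLA-F ACTL7B (0.99), for NLRC5 HLA-DMB (1.00) and for TAP1 COL18A1 (0.94). ASB10 and HLA-DMB each had a peak in 7 lists, the number of H3K27me3 libraries, and such values of r follow where cover is 0 in nearly all other lists. For the acetylated genes it was PIGP for B2M (0.95, 23 lists each) and GUCD1 for TAPBP (0.94, 19 lists against 28), and for the genes called in few lists it was KDELR3 for HLA-E (1.00) and DUSP14 for TAP2 (0.97).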

How the data were processed

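CUT&Tag tethers a Tn5 transposase to an antibody-bound mark and sequences the cut fragments. Per the methods of the authors, reads were trimmed (Trim Galore 0.6.6), aligned to hg19 (Bowtie2 2.2.9), stripped of duplicates (Picard 2.6.0) and handled with SAMtools 1.3.1 and bedtools 2.25.0, and peaks were called by MACS2 (narrow for H3K27ac, broad for H3K27me3) and SEACR. The TSA, PCR and extraction lists came from reads sampled down by the authors. The deposited MACS2 lists hold a fold enrichment (a ratio), −log10 p and −log10 q values and a score for each peak. The deposited SEACR lists hold total and maximum signal (coverage) for each peak. The lowest −log10 q lay between 5.04 and 6.62 in H3K27ac lists and between 1.22 and 1.76 in H3K27me3 lists, and the names of the replicated SEACR lists give the top 1% for H3K27ac and 10% for H3K27me3. The peak lists hold no fragment counts, and the library totals the study gives were not used, so no counting interval is given.

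Peaks were overlapped (at least 1 bp) with windows of 1.5 kb either side of every GENCODE v44 start lifted to GRCh37, merged per gene, and with gene bodies, for 20163 protein-coding genes. The 6 H3K27ac and 2 H3K27me3 replicated libraries were compared by exact two-sided permutation of the library labels (28 ways), and pairs by exact two-sided sign flips, with Benjamini-Hochberg adjustment over all genes. The code was tested on simulated data. Motifs were searched in RefSeq promoters of GRCh38.p14. Python 3.11.15, numpy 2.4.6, pandas 2.3.3, Biopython 1.88 and matplotlib 3.10.9 were used.

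All 9 genes are named. From the pathway lists were named, in alphabetical order and up to 4 per list and mark, genes called by both callers in every replicated library of a mark, genes sharing a start window with 1 of the 9, and the gene most correlated with each of the 9 over the 38 SEACR lists, on another chromosome or over 1 Mb away (that of HLA-C is not reported here). The 9 genes and the lists were chosen with earlier results of these data known. Alternatives were a 3 kb window, an overlap of 100 bp, stricter peaks, the MANE Select start alone (chosen after seeing the data), leaving out each replicate and a replicate block.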

Additional observations from a re-analysis of the deposited data

Results flagged for a closer look

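In the 6 replicated H3K27ac libraries the extreme value of 3 gene and caller combinations, of 10 groups examined, stood apart from the other 5 by more than Dixon's 95% critical value, and chance alone sets apart about 1 in 20 groups. B2M by SEACR was highest in Diagenode replicate 2, at 64.2%, where the next value was 52.1%. TAP1 by MACS2 was lowest in Diagenode replicate 1, at 0%, where the next was 7.05%. TAP2 by MACS2 was lowest in ab4729 replicate 1, at 0%, where the next was 13.4%.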

How the results depend on the processing

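Of 68 alternatives for counts of genes above 0, 66 stayed within 1.5 times the value reported. A further 34 concern comparisons in which 0 of the 9 genes passed, and say nothing of stability. Keeping only MACS2 peaks with a −log10 q of at least 10 left 2 instead of 5 genes called for H3K27me3 in both replicated libraries and 4 instead of 7 whose marks did not overlap. That limit falls unevenly, since the broad H3K27me3 peaks carry lower −log10 q values than the narrow H3K27ac peaks (6.44 and 9.11 at most over HLA-C in the replicated libraries). Leaving out each replicated library in turn gave 2 to 3 genes called for H3K27ac in every library by MACS2 (3 without ab4729 replicate 1 or Diagenode replicate 1) and 2 by SEACR, 5 to 6 called for H3K27me3 by either caller, and 7 to 8 without overlap by MACS2 and 7 by SEACR. The 50% of each SEACR list with the highest signal gave 69.4% instead of 72.9% of the HLA-B gene body under H3K27me3 and 39% instead of 55.2% at TAP1, and the other 7 of 9 gene body values stayed within the spread between replicates. It also ended every H3K27ac call at HLA-E, TAP1 and TAP2 by SEACR (0 libraries, against 2, 2 and 3) and the H3K27me3 call at TAP2 (0, against 1). Whether replicate numbers pair the libraries was read from the correlation of deviations. It ran from -0.01 to 0.42 by MACS2 and from -0.03 to 0.06 by SEACR, over 6 pairs of antibody groups each. It was above 0.1 in 1 pair, ab4729 with Diagenode by MACS2 (0.42), so that replicate numbers went together there but not in the other pairs. With the replicate number as a block the 7 genes without overlap, a count that a block cannot lower, had an exact permutation p of 0.0625 by either caller, the smallest it allows, in place of 0.0357. A gene with no peak is one not called at the depth and threshold of its list.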
